A study of Mus musculus with 9 samples.

Results

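The genes described here encode the proteins of the cytosolic ribosome. They were taken from the gene table by symbol alone: Rpl or Rps followed by a number and at most one of the letters a, l or x, together with Rplp0, Rplp1, Rplp2 and Rpsa, and without symbols that mark a pseudogene (-ps). The rule gave 81 of the 24411 genes in the table, 49 of the large (60S) subunit and 32 of the small (40S) subunit, and it used no measured value. One of the 81, Rps4l, is annotated as a transcribed processed pseudogene with no coding sequence and was kept because its symbol meets the rule. The data are messenger RNA sequencing counts from mouse liver at 3 months of age. In all 3 groups both copies of Atg7, which encodes the E1-like enzyme needed to form autophagosomes, carry loxP sites. The 3 cont. livers are Atg7flox/flox without a Cre transgene. The 3 Atg7-KO livers are Atg7flox/flox;Alb-Cre, in which the albumin promoter drives Cre and so removes Atg7 in hepatocytes. Atg7 in the other cells of the liver was not measured apart. The 3 Atg7-KO;p62S351A livers are Atg7flox/flox;Alb-Cre;p62S351A/p62S351A, which also carry a p62 allele in which a serine that is phosphorylated to raise binding to KEAP1 is replaced by alanine. The comparisons ask what the loss of Atg7 changes in liver RNA and what that p62 allele changes on top of it.

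A ribosome joins a small subunit, which reads the messenger RNA, to a large subunit, which forms the peptide bond. Its proteins are made in near-equal numbers, and their messenger RNAs are abundant, short and mostly begin with a C followed by a run of pyrimidines (the 5′ TOP element), through which the mTORC1 pathway and LARP1 control their translation and storage. Ribosomes are also a cargo of autophagy, which makes this set of interest in an autophagy-deficient liver.

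The libraries held between 713835 and 15426566 counts. Each Atg7-KO;p62S351A library was smaller than every other library, so that depth and the p62 allele cannot be told apart in comparisons with that group. Its livers 2 and 3 carry S352A and S353A for 1 p62 copy in the genotype label and S351A in the title; the titles were followed, and values with liver 1 alone are given with the limits. Atg7 was at 48.4 ± 8.20 CPM (counts relative to the TMM-scaled library size, per 1e+06 counts; SD, n = 3) in cont., 28.8 ± 1.16 in Atg7-KO and 23.0 ± 1.64 in Atg7-KO;p62S351A livers, and fell in Atg7-KO against cont. by 0.74 ± 0.24 on the log2 scale (SE, edgeR adjusted p = 0.00758). With the total library size the Atg7 value was -0.20 (adjusted p = 0.855), which is no longer a call. TMM scaling sets most genes level between libraries, and its factors were 0.727 to 0.843 in cont. and 1.07 to 1.18 in the other groups, so that a gene with an equal share of all counts in both sits lower after TMM in the livers with Alb-Cre. For that reason the sums over the set are given as plain shares of counts, and counts of calls also with the total library size, while single genes are given after TMM.

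The ribosomal protein genes together took a larger share of all counts in the livers with Alb-Cre than in cont. livers. In cont. livers they took 2.04%, 2.14% and 2.11% of the counts. In Atg7-KO livers they took 4.03%, 4.36% and 4.66%. In Atg7-KO;p62S351A livers they took 3.53%, 3.23% and 3.02%. No library of any group overlapped another group, with cont. lowest, Atg7-KO highest and Atg7-KO;p62S351A between them. The mean share was 2.10% ± 0.0533 (SD, n = 3) in cont., 4.35% ± 0.315 in Atg7-KO and 3.26% ± 0.260 in Atg7-KO;p62S351A livers, which is 2.07 times the cont. share in Atg7-KO and 1.55 times in Atg7-KO;p62S351A. The widest Wilson 95% interval of a single library, which covers counting error only, was 3.49% to 3.58%, in Atg7-KO;p62S351A 1. The 20 genes with most counts, none of them a ribosomal protein gene, held 19.0% to 24.2% of the counts in cont. and 14.7% to 16.6% in the other livers. With those genes left out of the total the shares were 2.66%, 5.13% and 3.88%, again in the same order.

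Both subunits followed this pattern. The 60S genes took 1.32% ± 0.0262 of the counts in cont., 2.80% ± 0.184 in Atg7-KO and 2.12% ± 0.182 in Atg7-KO;p62S351A livers (SD, n = 3). The 40S genes took 0.777% ± 0.0647, 1.55% ± 0.131 and 1.14% ± 0.0864 in the same order. Their ratio did not separate the groups: the summed 60S counts were 1.71 ± 0.172 times the 40S counts in cont., 1.81 ± 0.0372 times in Atg7-KO and 1.86 ± 0.0827 times in Atg7-KO;p62S351A, and single libraries ran from 1.57 to 1.90, from 1.78 to 1.85 and from 1.79 to 1.95.

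**Figure D1:**
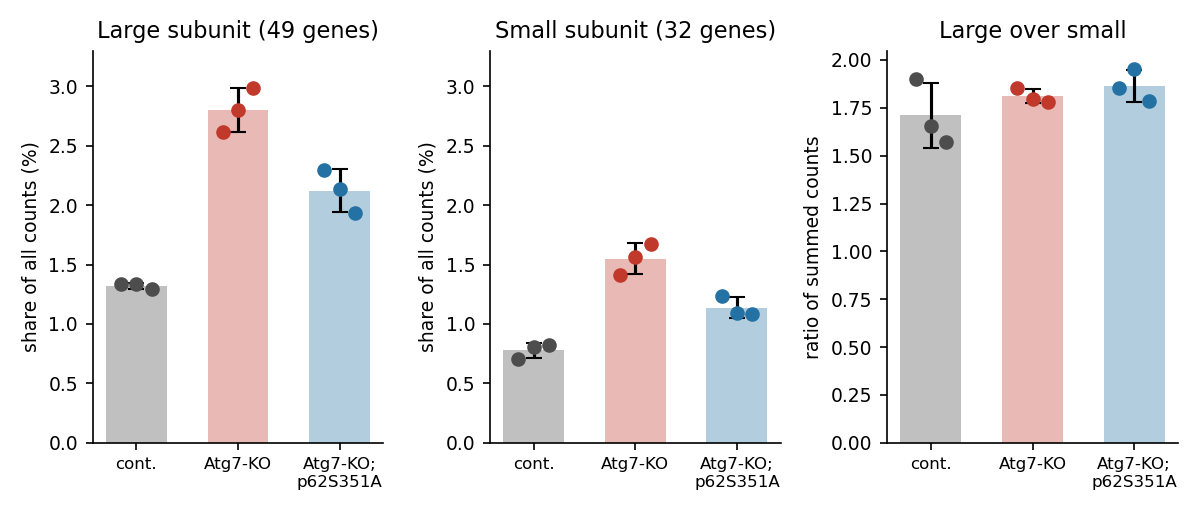
Share of all counts (%) taken by large subunit genes (left) and small subunit genes (middle), and the ratio of their summed counts (right), in each liver. Points are livers, bars the mean and error bars the SD (n = 3). The shares do not overlap between groups in either subunit, while the ratios do.

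After TMM scaling, which removes the change that most genes share, part of this difference remained. Of the 81 genes, 76 passed the filter on low counts (45 of the 60S and 31 of the 40S subunit). In Atg7-KO against cont., 30 of the 76 rose and 1 fell at an adjusted p below 0.05 in edgeR's quasi-likelihood test. Among all 11199 genes tested, 20.1% rose and 18.7% fell. The median log2 fold change was 0.45 over the ribosomal protein genes and -0.03 over all genes. At an unadjusted p below 0.05 the counts were 34 and 1 (23.9% and 23.6% of all genes). The fitted value was above 0 in 59 and below 0 in 17 (48.3% and 51.7%), and in 41 genes every Atg7-KO library was above every cont. library (26.7% of all genes did so, and 24.9% the reverse, as did 1 of the set). By subunit, 19 of 45 60S genes rose (median 0.48) and 11 of 31 40S genes rose (median 0.39), and the gene that fell was of the 60S subunit. With the total library size in place of TMM, 58 of the 76 rose and none fell (39.3% and 7.27% of all genes), the median of the members was 1.00 and that of all genes was 0.52. DESeq2 called 33 higher and 1 lower (20.1% and 17.5%). The count of 30 was 17 without cont. 1 or without cont. 2, and 11 without Atg7-KO 2 or without Atg7-KO 3. In bulk tissue fewer cells of a type and less RNA per cell cannot be told apart.

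Rpl19 and Rps4x were among the genes that rose most, with fitted levels in Atg7-KO 2.41 and 2.33 times those in cont. Rpl19 (chr11:98026710-98030492, plus strand, mm10) encodes a 60S protein that takes part in a bridge to the small subunit. Its level was 660 ± 36.7 CPM (SD, n = 3) in cont., 1593 ± 194 in Atg7-KO and 1084 ± 178 in Atg7-KO;p62S351A livers, with no overlap between any pair of groups. The log2 fold change in Atg7-KO against cont. was 1.27 ± 0.33 (SE, adjusted p = 0.00105). Rps4x (chrX:102184941-102189394, minus strand), the X-linked gene of a 40S protein, was at 98.5, 110 and 168 CPM in cont., 289, 290 and 304 in Atg7-KO, and 277, 221 and 178 in Atg7-KO;p62S351A livers. Here too the cont. livers were lowest and the Atg7-KO livers highest, and the log2 fold change in Atg7-KO against cont. was 1.22 ± 0.34 (adjusted p = 0.00229).

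Rpl41 and Rpl22 also rose clearly in Atg7-KO. Rpl41, which encodes the shortest ribosomal protein, was at 252 ± 17.1 CPM in cont., 511 ± 30.5 in Atg7-KO and 377 ± 105 in Atg7-KO;p62S351A livers (1.02 ± 0.31 on the log2 scale in Atg7-KO against cont., adjusted p = 0.00513). Rpl22, whose protein has a paralog in Rpl22l1 and is needed for T cell development, was at 216, 221 and 235 CPM in cont., 397, 439 and 491 in Atg7-KO, and 322, 402 and 305 in Atg7-KO;p62S351A livers. Its log2 fold change in Atg7-KO was 0.98 ± 0.28 (adjusted p = 0.00269).

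Rpl35a was the only gene of the set called lower in Atg7-KO. The gene (chr16:33056453-33060189, plus strand) encodes a 60S protein whose loss causes Diamond-Blackfan anaemia in humans. It was at 474, 528 and 536 CPM in cont., 307, 296 and 346 in Atg7-KO, and 317, 246 and 312 in Atg7-KO;p62S351A livers, so all 6 livers with Alb-Cre were below the 3 cont. livers. The log2 fold change in Atg7-KO was -0.70 ± 0.25 (adjusted p = 0.0173), and with the total library size it was -0.16 (adjusted p = 0.559), which is no longer a call.

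**Figure D2:**
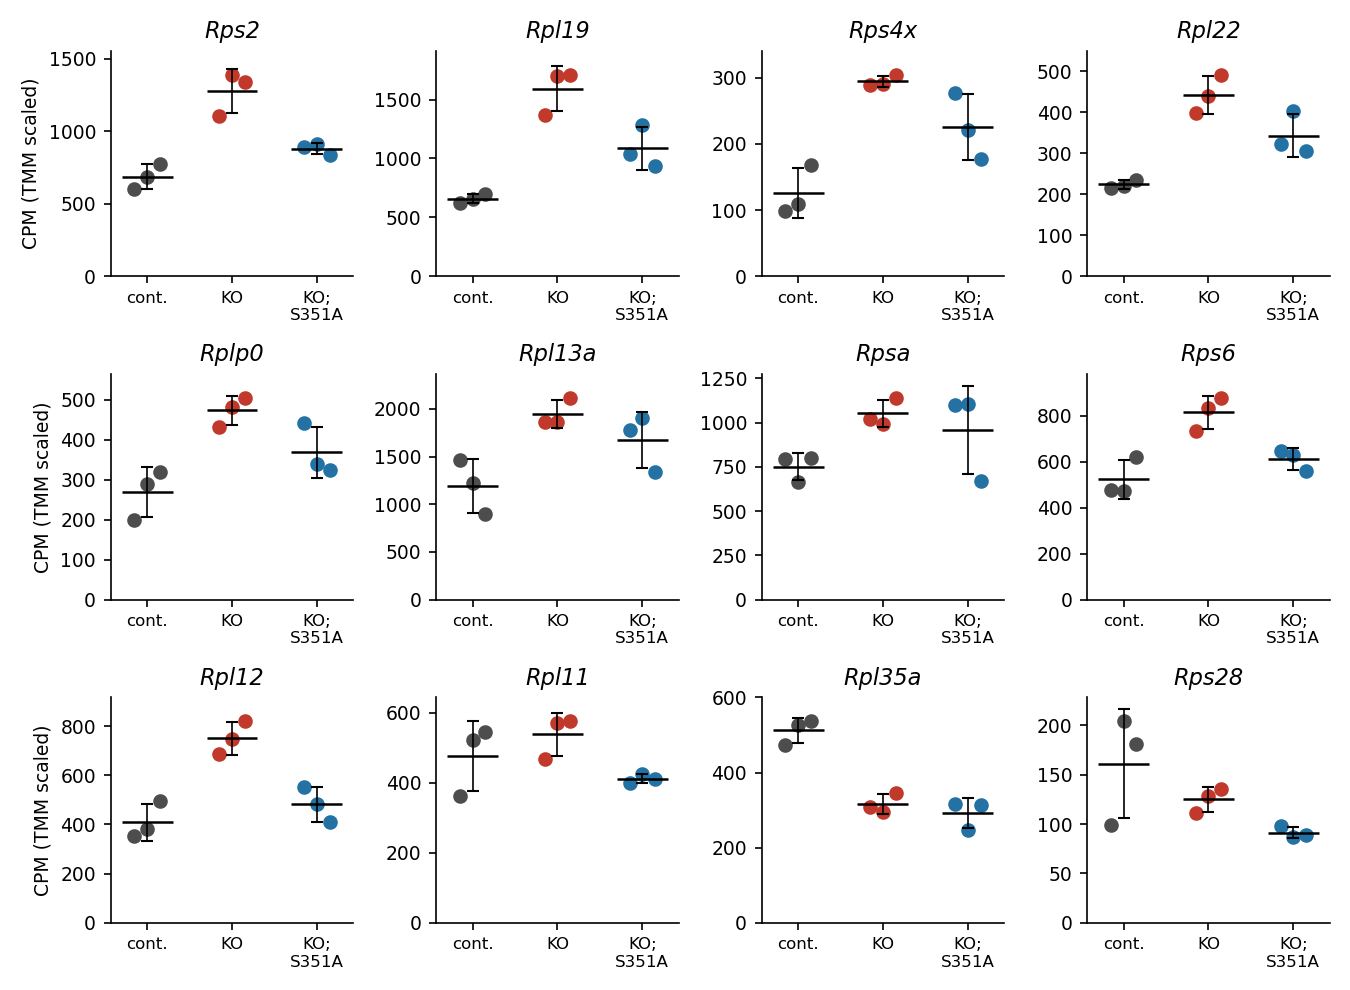
CPM after TMM scaling in each liver for 12 ribosomal protein genes. Points are livers, horizontal lines the mean and error bars the SD (n = 3); KO is Atg7-KO and KO;S351A is Atg7-KO;p62S351A. Rpl19 and Rps4x are lowest in every cont. liver, and Rpl35a is highest there.

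Of the stalk proteins Rplp0, Rplp1 and Rplp2, which recruit the elongation factors to the large subunit, only Rplp0 was called in Atg7-KO against cont. Rplp0, the stalk base, was at 199, 289 and 320 CPM in cont., 432, 482 and 503 in Atg7-KO, and 441, 338 and 325 in Atg7-KO;p62S351A livers. It rose in Atg7-KO (log2 fold change 0.81 ± 0.29, adjusted p = 0.0173). Rplp1 was at 491 ± 74.5 CPM in cont. and 561 ± 92.2 in Atg7-KO (log2 fold change 0.19 ± 0.23, adjusted p = 0.535). Rplp2 was at 99.1 ± 29.8 and 91.7 ± 14.3 CPM (log2 fold change -0.13 ± 0.27, adjusted p = 0.748), so that neither was called and their groups overlapped. Whether Rplp0 moved differently from Rplp1 and Rplp2 was not tested directly. Rpl12, which sits at the base of the stalk, rose from 410 ± 74.9 CPM in cont. to 751 ± 66.8 in Atg7-KO (log2 fold change 0.87 ± 0.29, adjusted p = 0.00904).

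Rpl5 and Rpl11 bind the 5S ribosomal RNA and, when free, bind the p53 regulator MDM2. Rpl5 was at 142, 161 and 251 CPM in cont., 263, 254 and 256 in Atg7-KO, and 301, 287 and 169 in Atg7-KO;p62S351A livers. Rpl11 was at 362, 522 and 545 CPM in cont., 468, 571 and 575 in Atg7-KO, and 399, 425 and 411 in Atg7-KO;p62S351A livers. Neither passed the test in Atg7-KO against cont., with log2 fold changes of 0.48 ± 0.29 (adjusted p = 0.189) for Rpl5 and 0.17 ± 0.23 (adjusted p = 0.574) for Rpl11.

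Of the other 60S genes named for their roles, Rpl4, whose protein lines the exit tunnel, rose from 331 ± 120 CPM in cont. to 579 ± 24.9 in Atg7-KO (log2 fold change 0.80 ± 0.32, adjusted p = 0.0319). Rpl13a, whose protein also silences inflammatory transcripts once it leaves the ribosome, had the highest mean CPM of the set. It was at 1463, 1219 and 896 CPM in cont., 1864, 1860 and 2114 in Atg7-KO, and 1781, 1901 and 1340.2 in Atg7-KO;p62S351A livers. It rose in Atg7-KO (log2 fold change 0.71 ± 0.30, adjusted p = 0.0464), close to the threshold. The call of Rpl13a was lost in 12 alternative settings (described with the limits) and kept in 13. That of Rpl4 was lost in 7 and kept in 18.

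On the small subunit, Rps6, the substrate of S6 kinase, rose from 523 ± 85.1 CPM in cont. to 815 ± 72.3 in Atg7-KO (log2 fold change 0.64 ± 0.25, adjusted p = 0.0345). Rps19, the gene most often mutated in Diamond-Blackfan anaemia, rose from 143 ± 12.1 to 238 ± 21.7 CPM (0.73 ± 0.27, adjusted p = 0.0212). Rps2 and Rps3 sit where the messenger RNA enters the 40S subunit. Rps2 rose from 685 ± 85.9 to 1276 ± 151 CPM (0.90 ± 0.28, adjusted p = 0.00672), and Rps7, another 40S gene, rose from 262 ± 85.2 to 475 ± 52.1 CPM (0.86 ± 0.31, adjusted p = 0.0180). Rps3 rose from 271 ± 23.6 to 510 ± 25.5 CPM (0.91 ± 0.27, adjusted p = 0.00329). For all 5 the lowest Atg7-KO liver lay above the highest cont. liver. Among the alternative settings, the call was lost in 8 for Rps6, in 5 each for Rps19 and Rps7, and in 1 each for Rps2 and Rps3.

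Other small subunit genes stayed under the threshold. Rpsa, whose protein is also known as the laminin receptor precursor, was at 752 ± 77.7 CPM in cont. and 1052 ± 76.2 in Atg7-KO (0.48 ± 0.27, adjusted p = 0.143) without overlap. Rps27a, which encodes a fusion of ubiquitin and a 40S protein, was at 247 ± 83.2 and 306 ± 37.0 CPM (0.31 ± 0.28, adjusted p = 0.399). Rps14, whose reduced dose underlies the anaemia of the 5q- syndrome, was at 250 ± 60.4 and 206 ± 21.6 CPM (-0.29 ± 0.28, adjusted p = 0.423), and its sign, like that of Rps28 (-0.37 ± 0.27, adjusted p = 0.262), turned to above 0 with the total library size (0.26 and 0.17).

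**Figure D3:**
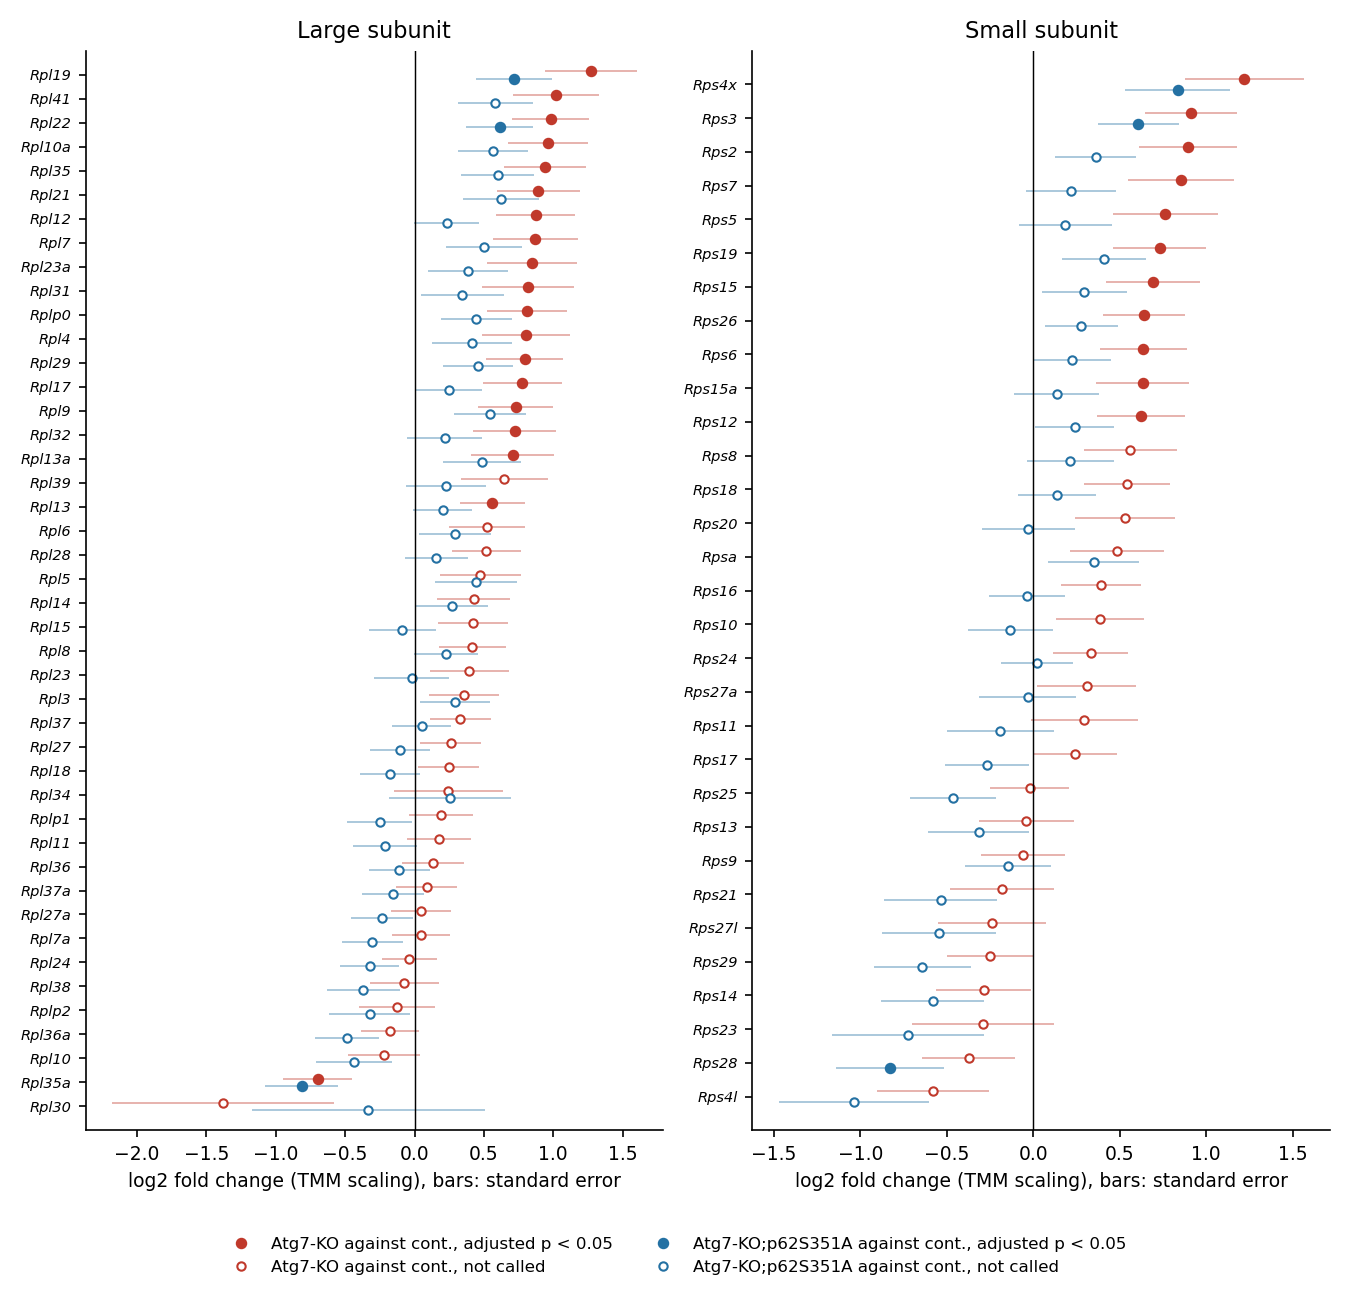
Log2 fold change (TMM scaling) of 75 of the 76 tested genes, large subunit (left) and small subunit (right), in Atg7-KO (red) and in Atg7-KO;p62S351A (blue) against cont.; bars are the standard error and filled points have an adjusted p below 0.05. In Atg7-KO against cont. 29 filled points lie above 0 and 1 below; both comparisons share the cont. livers.

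Paralogs known for expression outside the liver were at or near 0. Rpl10l, a testis paralog of Rpl10, had no count in any library, which with 3 counts as the floor allows at most 0.269 to 3.73 CPM depending on the library. Rpl39l, another paralog known from testis, had counts in 1 library only, and Rpl3l, a muscle paralog of Rpl3, reached 1.15 CPM at most. Their broadly expressed partners were not called: Rpl3 was at 159 ± 30.1 CPM in cont. and 204 ± 9.95 in Atg7-KO (0.36 ± 0.25, adjusted p = 0.254), Rpl10 at 550 ± 171 and 473 ± 40.5 (-0.22 ± 0.26, adjusted p = 0.528), and Rpl39 at 195 ± 75.4 and 306 ± 27.6 (0.65 ± 0.31, adjusted p = 0.0836). Rps27l, a paralog of Rps27 that p53 induces, was at 329 ± 123 and 279 ± 72.4 CPM (-0.24 ± 0.31, adjusted p = 0.566).

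Some genes were low, and some share much of their sequence with near-identical copies. Rps27 was listed at 0 to 7.40 CPM, while Rps27rt, a near-identical copy, was at 218 ± 24.2, 244 ± 23.5 and 223 ± 46.0 CPM, and 98.5% of the 75-base windows of Rps27 also occur in other genes' transcripts. Rpl26 was at 0 in 7 of 9 libraries and at 9.14 and 9.51 CPM in cont. 3 and Atg7-KO 1, and 48.9% of its windows are shared. Rpl30, whose protein binds kink-turn RNA, was the lowest tested gene of the set at 7.68 ± 4.25, 3.43 ± 3.39 and 6.27 ± 6.32 CPM. Of its windows, 24.5% are shared. The cause of these low levels was not tested. Of the 76 tested genes, 27 share more than 50% of their windows with other genes, and their counts depend on how the counting split such reads. Across the 76 genes the log2 fold change in Atg7-KO against cont. had a Spearman rho of 0.04 with the share of shared windows, as a description with no test. The 7 rows whose symbols mark a ribosomal protein pseudogene (-ps) held the equivalent of 0.595% to 1.01% of the members' counts. Copies with other symbols, such as Gm10288 for Rpl11, are not part of that sum.

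Per kilobase of transcript (the principal transcript of the GENCODE M21 annotation), mean levels of the 76 tested genes over the groups ran from 6.54 CPM per kb for Rpl30 to 1744 for Rps18, which is named for its place in this order. The next below Rps18 was Rpl13a at 1532 CPM per kb.

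The p62S351A allele was compared with Atg7-KO, the closest control. Lower values were the rule, but no single gene passed the test. At an adjusted p below 0.05, edgeR called none of the 76 genes higher and none lower, against 0% and 0.00893% of all genes, and DESeq2 also called none in either direction (0.188% and 0.161%). At an unadjusted p below 0.05, edgeR gave 0 higher and 7 lower (3.38% and 3.21%). The fitted log2 fold change was below 0 in 74 of the 76 genes and above 0 in 2, against 48.8% and 51.2% of all genes, with a median of -0.36 over the set and 0.01 over all genes. In 46 of the 76 genes every Atg7-KO;p62S351A library was below every Atg7-KO library, as in 9.23% of all genes, and in no gene was it the reverse (7.67%). The summed share in Atg7-KO;p62S351A was 0.749 times that in Atg7-KO. With the total library size the median was -0.41, and without each library in turn it ran from -0.45 to -0.31.

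The genes with the smallest p in this comparison were Rpl12, Rps7, Rps2 and Rpl19. Rpl12 was at 686, 749 and 819 CPM in Atg7-KO and 551, 482 and 411 in Atg7-KO;p62S351A livers, against 410 ± 74.9 (SD, n = 3) in cont. Without overlap between these mutant groups, the log2 fold change was -0.64 ± 0.26 with a 95% interval of -1.16 to -0.13 (edgeR, adjusted p = 0.692). Rps7 gave -0.64 ± 0.29 (adjusted p = 0.715), from 475 ± 52.1 CPM in Atg7-KO to 305 ± 35.6 in Atg7-KO;p62S351A livers. Rps2 gave -0.54 ± 0.25 and Rpl19 -0.55 ± 0.26 (adjusted p = 0.738 for both). Genes with little difference on this scale included Rpl35a at -0.12 with an interval of -0.53 to 0.30, and Rpl5 at -0.03 with an interval of -0.58 to 0.52, intervals that also hold the median of the set.

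Against cont., the Atg7-KO;p62S351A livers showed fewer calls than the Atg7-KO livers. In edgeR 5 of the 76 genes were higher and 2 lower, against 15.7% and 13.2% of all genes, and the median log2 fold change was 0.17 (-0.03 over all genes), with a range of 0.03 (without cont. 1) to 0.19 when a library was left out. DESeq2 gave 9 and 3 (16.5% and 12.7%), and an unadjusted p below 0.05 in edgeR 10 and 5 (21.1% and 19.9%). Fitted values were above 0 in 43 and below 0 in 33 (48.6% and 51.4%), and 13 genes were higher and 9 lower without overlap (19.6% and 18.4%). Genes that were higher included Rps4x (0.84 ± 0.30, 0.0263), Rpl19 (0.72 ± 0.27, 0.0338), Rpl22 (0.61 ± 0.24, 0.0432) and Rps3 (0.61 ± 0.24, adjusted p = 0.0380), the last named after its value was seen. Rpl35a (-0.81 ± 0.26, adjusted p = 0.0115) and Rps28 (-0.83 ± 0.31, adjusted p = 0.0322) were lower. Rps28, a 40S gene also mutated in Diamond-Blackfan anaemia, was at 98.5, 204 and 181 CPM in cont., 111, 128 and 135 in Atg7-KO, and 97.7, 86.9 and 88.9 in Atg7-KO;p62S351A livers, where its cont. 1 value lay just above the highest of them. With the total library size 40 of the 76 were higher and none lower (31.8% and 4.59% of all genes). The calls rest on few livers: edgeR gave 0 to 8 higher genes when a library was left out, 0 without Atg7-KO;p62S351A 2 and 1 without Atg7-KO;p62S351A 1, without cont. 2 or without Atg7-KO 3, and 1 to 8 lower genes, 8 without cont. 1. With an offset in transcript length 12 were higher and 0 lower. The median was then 0.35, against -0.07 over all genes, and the share of all genes called was not counted. Across all 3 groups, 17 of the 76 genes differed in an edgeR test of both terms, against 35.1% of all genes. That count was 7 without Atg7-KO 2 or without Atg7-KO 3, 10 without cont. 2, 26 without cont. 3, 29 with the length offset and 52 with the total library size.

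To see which genes moved apart from the set, the sum of the ribosomal protein counts was used as library size, so that scaling between libraries cancels. In Atg7-KO against cont. 3 of the 76 genes were higher and 10 lower, against 12.2% and 39.1% of all genes on this scale, on which the median of all genes was -0.53. These calls rest on few livers: there were 0 higher and 3 lower without Atg7-KO 2, 1 and 3 without Atg7-KO 3, 2 and 3 without Atg7-KO 1, and 2 and 5 without cont. 2. Rpl19 made up 2.57%, 2.45% and 2.39% of the ribosomal protein counts in cont., 3.98%, 4.34% and 4.12% in Atg7-KO, and 3.23%, 4.19% and 3.51% in Atg7-KO;p62S351A livers (0.75 ± 0.28, adjusted p = 0.0193 for Atg7-KO against cont.), with all 6 livers with Alb-Cre above the 3 cont. livers. Rps4x (0.73 ± 0.28, adjusted p = 0.0208) was also above the set.

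The genes called lower against the set with all 9 livers were Rpl35a, Rps28, Rps4l, Rps14, Rps29, Rps27l, Rpl10, Rpl36a, Rplp2 and Rpl30. Rpl35a made up 1.95%, 1.97% and 1.84% of the set's counts in cont., 0.893%, 0.756% and 0.835% in Atg7-KO, and 0.985%, 0.805% and 1.17% in Atg7-KO;p62S351A livers (-1.21 ± 0.32, adjusted p = 0.00120). Rps4l, the annotated processed pseudogene of the set, with a single exon and no coding sequence, fell against the set by 1.06 ± 0.37 on the log2 scale (adjusted p = 0.0121), from 0.0549% ± 0.00274 of the set's counts in cont. to 0.0261% ± 0.00779 in Atg7-KO, and stood at 0.0243% ± 0.0106 in Atg7-KO;p62S351A livers. After TMM its log2 fold change in Atg7-KO was -0.58 (adjusted p = 0.142), with overlapping groups. Rps14 fell by 0.79 ± 0.30 (adjusted p = 0.0193) and Rps28 by 0.87 ± 0.30 (adjusted p = 0.0105) against the set. Rpl30 gave -1.87 ± 0.80 (adjusted p = 0.0399) on very few counts, and its groups overlapped. In Atg7-KO;p62S351A against cont. 2 genes were higher (Rps4x among them) and 5 lower (Rpl35a, Rps14, Rps28, Rps29 and Rps4l) on this scale, against 12.4% and 15.4% of all genes, and 0 to 2 and 1 to 7 when a library was left out. In Atg7-KO;p62S351A against Atg7-KO edgeR called none, in either direction, with 0 at an unadjusted p below 0.05, and the median was 0.00, so that on this scale no gene could be separated from the set.

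**Figure D4:**
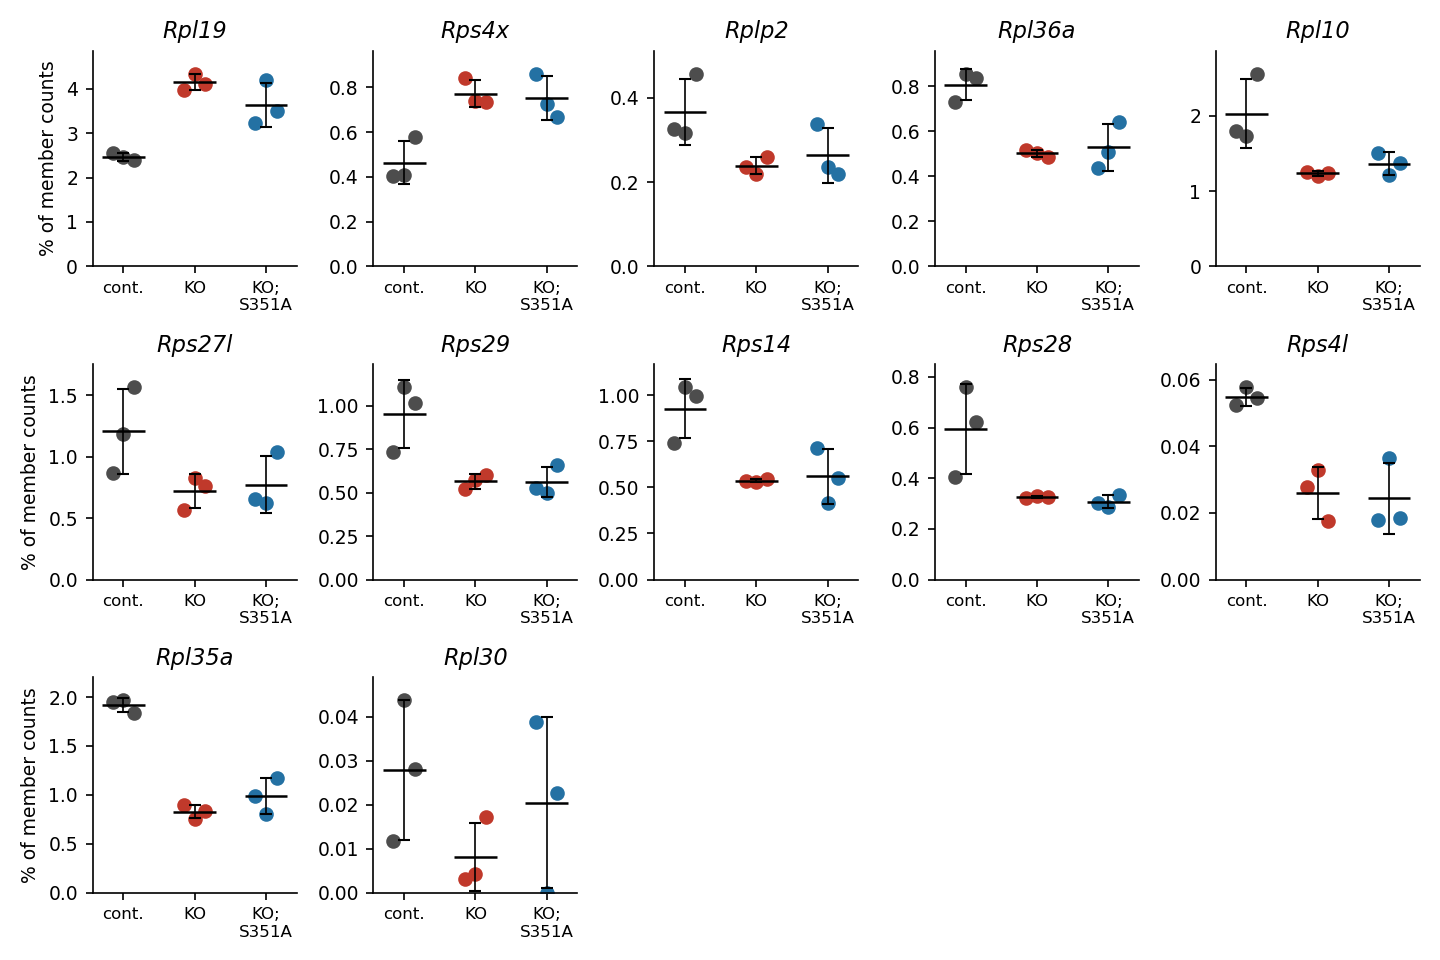
Share of the ribosomal protein counts (%) held in each liver by 12 of the 13 genes with an adjusted p below 0.05 in Atg7-KO against cont. when the sum of the set is the library size. Points are livers, lines the mean and error bars the SD (n = 3). Rpl19 and Rps4x are above cont. in every liver with Alb-Cre, and Rpl35a is below.

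The fold changes of the genes differed by annotated transcript length, taken from 1 principal transcript of each gene. That transcript can be far longer than the coding sequence, as in Rps15a (5179 and 390 bases) and Rps20 (3706 and 357 bases). Such genes are counted here among the longer ones, and their levels per kilobase depend on that choice. Of the 76 tested genes, the 18 with a transcript under 600 bases had a median log2 fold change in Atg7-KO against cont. of 0.11 with 5 higher and 1 lower, and the 58 longer ones had a median of 0.52 with 25 higher and 0 lower. Among all genes with a length, 149 short ones had a median of -0.28 with 27 higher and 51 lower, and 10657 longer ones had a median of -0.03 with 2154 higher and 1962 lower. Across the 76 genes Spearman's rho between length and log2 fold change was 0.35 in Atg7-KO against cont., 0.38 in Atg7-KO;p62S351A against cont. and -0.03 in Atg7-KO;p62S351A against Atg7-KO, given as descriptions of genes that share the same libraries. The 5 short transcripts that were higher had log2 fold changes of 0.62 to 1.02, with the largest in Rpl41 (582 bases).

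**Figure D5:**
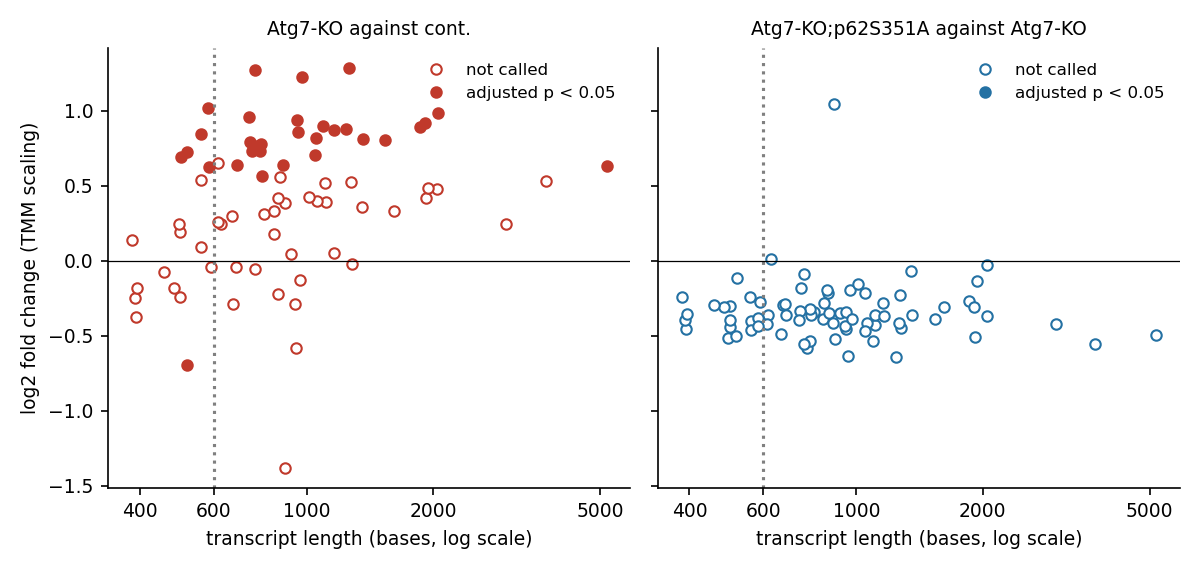
Log2 fold change (TMM scaling) against transcript length (bases, log scale) for the 76 tested genes in Atg7-KO against cont. (left) and in Atg7-KO;p62S351A against Atg7-KO (right). Filled points have an adjusted p below 0.05, and the dotted line marks 600 bases. On the left short transcripts lie lower, with a median of 0.11 against 0.52, and on the right nearly all points lie below 0 at every length.

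Sequences at the annotated start sites were read for the pyrimidine run for which these messenger RNAs are known. RefSeq promoters on GRCm38.p6 were matched for 60 of the 81 genes (72 promoters), and 13 of the 72 begin with the run at the annotated base. The windows below hold 15 bases before and 15 from the annotated start onward on the strand of the gene; capitals mark the run where the start is a C followed by at least 4 C or T. The lines show genes with the run (Rps6, Rps18, Rpl35 and the middle one of 3 annotated starts of Rpl35a) and called genes without it (Rps4x, Rpl22 and Rpl19).
Rps6 (chr4:86857353-86857382, minus strand): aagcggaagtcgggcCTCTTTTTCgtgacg
Rps18 (chr17:33955651-33955680, minus strand): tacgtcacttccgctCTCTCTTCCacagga
Rpl35 (chr2:39005117-39005146, minus strand): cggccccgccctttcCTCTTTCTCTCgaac
Rpl35a (chr16:33056467-33056496, plus strand): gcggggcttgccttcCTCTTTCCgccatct
Rps4x (chrX:102189377-102189406, minus strand): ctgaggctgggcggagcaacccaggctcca
Rpl22 (chr4:152325711-152325740, plus strand): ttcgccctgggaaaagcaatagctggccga
Rpl19 (chr11:98026695-98026724, plus strand): tgaccaaacgccctcactgcgcatgtgcgc

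The run began at the annotated start in 18.1% of the members' promoters and in 2.51% of all 32851 promoters of the table. An annotated start may lie some bases from the start used in liver, so a window without the run says only that it does not begin at that base. The letters CCGGAA, the core of ETS and GABP sites, occurred on either strand within 300 bases in 47.2% of the members' promoters and 14.9% of all. AAGATGGC, a YY1 core, occurred in 9.72% and 2.75%, and TGACNNNGC in 19.4% and 12.4%. A match is a description and not a site of binding. Among tested genes with a promoter, the 12 with the run had a median log2 fold change in Atg7-KO against cont. of 0.42 and 3 were higher and 1 lower, and the 43 without it had a median of 0.48 and 19 were higher (20.1% of all genes tested were higher and 18.7% lower). The 3 of 12 are near that share. For CCGGAA the medians were 0.46 in 30 genes with it and 0.48 in 25 without.

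Ribosomal protein genes whose symbols fall outside the rule showed no called rise after TMM scaling. Of 8 such genes tested, 1 was called lower in Atg7-KO against cont. after TMM and 0 higher, with 0 higher also at an unadjusted p below 0.05 in edgeR. The gene called was Rpl36al, a copy of Rpl36a, which fell from 339 ± 44.0 CPM in cont. to 140 ± 7.59 in Atg7-KO and 138 ± 4.38 in Atg7-KO;p62S351A livers (log2 fold change -1.28 ± 0.30 in Atg7-KO, adjusted p = 0.000333). The log2 fold change of Rpl36al was -0.73 with the total library size (adjusted p = 0.00635). The list includes Fau, a fusion of a ubiquitin-like protein and a 40S protein. With the total, 4 of the 8 were called higher and 1 lower. All-gene shares were 20.1% higher and 18.7% lower after TMM, and 39.3% and 7.27% with the total, and nothing particular to these 8 genes is read from the counts.

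Neighbouring groups of genes gave mixed counts. With the total library size the all-gene median is higher by 0.55 in Atg7-KO, so each list is also given on that scale. Over all genes 20.1% rose and 18.7% fell after TMM, and 39.3% and 7.27% with the total. Of 27 translation factors and other genes of the 5′ TOP class, 7 rose and 2 fell in Atg7-KO against cont. after TMM (median 0.00), and 11 and 0 with the total. Eif3f, a subunit of initiation factor 3, rose from 55.8 ± 9.88 to 125 ± 19.7 CPM (1.15 ± 0.30, adjusted p = 0.00104), and Snhg8, a host of a small nucleolar RNA, fell (-1.01 ± 0.34, adjusted p = 0.0113). Of 82 genes of ribosome assembly and RNA polymerase I, 13 rose (15.9%, below the share of all genes) and 4 fell (4.88%), and 39 and 1 with the total (47.6% and 1.22%), from Gar1 of the box H/ACA particle (1.56 ± 0.52, adjusted p = 0.0109) to the acetyltransferase Nat10 (-1.28 ± 0.33, adjusted p = 0.000982).

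Of 28 tested regulators of ribosomal protein genes and of ribosome turnover, 2 rose (7.14%) and 6 fell (21.4%), and 10 rose (35.7%) and 0 fell with the total, against 20.1% and 18.7%, and 39.3% and 7.27%, of all genes. Myc, a known activator of ribosome genes, rose from 3.28 ± 0.525 CPM in cont. to 17.6 ± 2.20 in Atg7-KO and stood at 8.46 ± 2.53 in Atg7-KO;p62S351A livers (2.36 ± 0.51 in Atg7-KO, adjusted p = 8.56e-05), and Zfp598, the sensor of collided ribosomes, fell (-1.09 ± 0.32, adjusted p = 0.00320). Of 12 p53 targets and partners 9 rose (12 with the total), led by Eda2r (3.79 ± 1.06, adjusted p = 0.00229). Of 77 mitochondrial ribosomal protein genes, 2 rose and 21 fell after TMM, which turned to 19 and 2 with the total, with Mrpl33 (0.89 ± 0.26, adjusted p = 0.00346) and Mrps14 (-1.46 ± 0.45, adjusted p = 0.00570) at the ends. Of 53 small subunits of oxidative phosphorylation, which are also short and abundant, 46 fell (median -1.24), and with the total 1 rose and 26 fell. Of the genes called, Atp5g3 fell most (-2.60 ± 0.67, adjusted p = 0.00103). In Atg7-KO;p62S351A against Atg7-KO edgeR called none of the genes of these lists.

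Markers of liver cell types moved with the groups as well. The summed level of 14 hepatocyte markers ran from 70414 to 147280 CPM in cont., from 40610 to 47158 in Atg7-KO and from 39299 to 55142 in Atg7-KO;p62S351A livers, and 11 of the 14 fell in Atg7-KO (20.1% of all genes rose and 18.7% fell). Summed macrophage markers ran from 269 to 429, from 621 to 734 and from 499 to 513 CPM (10 of 15 rose and 1 fell). Summed ductular markers ran from 56.7 to 108, from 827 to 1234 and from 744 to 1248 CPM (6 of 7 tested rose). Summed stellate markers ran from 66.5 to 144, from 746 to 909 and from 565 to 757 CPM (5 of 8 tested rose), with Timp1 at 0 in cont. Summed proliferation markers ran from 43.0 to 45.8, from 169 to 214 and from 150 to 163 CPM (10 of 11 tested rose). Summed lymphocyte markers ran from 9.77 to 21.5, from 33.0 to 42.6 and from 24.7 to 46.0 CPM (2 of 3 tested rose), endothelial markers from 220 to 403, from 308 to 377 and from 310 to 315 CPM (1 of 8 rose and 2 fell), and erythroid markers from 322 to 899, from 93.3 to 204 and from 152 to 220 CPM (2 of 3 tested fell), with Hba-a1 at 0 in all groups. With the total library size the counts higher and lower were 2 and 9 for hepatocyte, 10 and 1 for macrophage, 6 and 0 for ductular, 8 and 0 for stellate, 10 and 0 for proliferation, 3 and 0 for lymphocyte, 3 and 0 for endothelial and 0 and 2 for erythroid markers, so that the endothelial direction turned. Their part in the level of the ribosomal protein genes was not tested.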

How the data were processed

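Poly(A) RNA from 9 livers was sequenced. Per the submitters' processing notes the authors used Trim Galore, STAR and RSEM on mm10 and deposited RSEM expected counts per gene symbol; versions, annotation and the use of strand are not given in the sources used here. The expected counts were rounded to whole numbers. Genes passing edgeR's filterByExpr (minimum count 10, total 15) were fitted with edgeR 4.0.16 (R 4.3.3): TMM scaling, 1 term per group over all 9 libraries, quasi-likelihood F test, Benjamini-Hochberg adjustment over 11199 genes, and a call at an adjusted p below 0.05 without a fold minimum. Standard errors are those implied by the p-value. DESeq2 1.42.0 was an alternative. Levels (CPM) are relative to the TMM-scaled library size. Thinned counts kept each read with equal chance. Totals of 713835 to 15426566 counts set the precision. The Wilson intervals of shares and the floors (3 counts) cover counting error only. Intervals of fold changes follow from the standard errors of the edgeR test, which take in the spread between livers. Reads carry no molecular identifiers. The labels call the samples separate mice of each group. Some genes are counted in totals but not reported by name here. The fitting code was tested on simulated data.

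The gene set, the other gene lists and the marker lists were chosen with earlier results of these data known. Named genes are those with a well-known role (stalk, 5S particle, Rpsa, Rps6, Rps27a, Rps4x, Rpl4, Rpl13a, Rpl41, Rps14, Rps19), paralog pairs, the 4 called genes with the largest change and no overlap in each direction against cont., the 4 with the smallest p between the mutant groups, the 4 with the largest change against the set, the highest and lowest level (Rpl13a and Rpl30), and the called genes with the largest rise and fall of each other list; of the marker lists only counts and sums are given. Rps3, Rps18, Rps29, Rpl26, Rpl35, Rpl36a, Rps27rt, Rpl37, Rpl37rt, Fau, Timp1 and Hba-a1 fall outside this rule and were chosen after their values were seen. Rps4l, placed by hand in the list of genes outside the rule, is a member and was counted only as one. Gene positions are from GENCODE M21 on mm10, in which all 81 symbols were found, and start-site sequences from RefSeq on GRCm38.p6.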

Additional observations from a re-analysis of the deposited data

How the results depend on the processing

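Before scaling choices, the shares of counts for cont., Atg7-KO and Atg7-KO;p62S351A were 2.66%, 5.13% and 3.88% with the top 20 genes taken out of the total, and 3.53% for liver 1 of Atg7-KO;p62S351A alone, the one whose genotype label and title match (an alternative added after the data were seen, as was adding Rps27rt and Rpl37rt to Rps27 and Rpl37). In the order Atg7-KO against cont., then Atg7-KO;p62S351A against cont., counts higher and lower and medians were 58, 0 and 1.00, then 40, 0 and 0.67 with the total library size; 53, 0 and 0.88, then 30, 0 and 0.56 without the 20 genes; and 3, 10 and -0.0596, then 2 and 5 with the set as library size, where the median between the mutant groups was 0.00274. The total library size moved the median of all genes by 0.55 and 0.50. Without the 20 genes the medians of all genes were 0.40 and 0.36, so part of the members' medians is a shift of all genes. For that setting, and for the filters, thinning, length offset, covariates and left-out libraries, the share of all genes called was not counted. Genes differing among the 3 groups were 52, 47, 9 and 29 of the set with the total, without the 20 genes, with the set as library size, and with an offset in transcript length. Without a filter 2 were lower in Atg7-KO, and 2 higher and 6 lower in Atg7-KO;p62S351A against cont. After thinning every library to about 713835 counts (a binomial draw, chosen in place of edgeR's own thinning after values of the latter were seen), 28 were higher and 1 lower in Atg7-KO, 7 and 2 in Atg7-KO;p62S351A against cont., and in the latter 0 were higher against the set. With the length offset none was lower in Atg7-KO, and 12 were higher and 0 lower in Atg7-KO;p62S351A against cont. (median 0.35, and -0.07 over all genes). For that comparison, genes higher were 8 with at least 10 counts in every library and 9 in DESeq2, and higher and lower 1 and 0 in the 6 compared libraries alone. The median of the members lay above that of all genes by 0.20 in the main fit and 0.28 in the 6 libraries. With liver 1 alone, where only the other groups give the spread, it lay above by 0.23. Against the set, higher genes in that comparison were 0 without a filter and 1 with sex (read from transcripts) as a covariate. Higher and lower were 0 and 1 in the 6 libraries alone. Leaving out each library in turn gave 11 to 31 higher and 0 to 2 lower in Atg7-KO against cont., 0 to 8 and 1 to 8 in Atg7-KO;p62S351A against cont., 7 to 26 among the 3 groups, 0 to 3 higher and 3 to 13 lower against the set in Atg7-KO, and 0 to 2 and 1 to 7 in Atg7-KO;p62S351A.

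The labels do not say that a number marks a shared litter or day, and the criterion for pairing (each same-numbered correlation above 0.1) was not met: correlations of deviations from the group means ran from -0.04 to 0.31. A partial pairing remains possible, since 8 of 9 were above 0, those of number 1 were 0.235 to 0.306, and 6 of 9 libraries correlated best with their own number. By their transcripts all livers numbered 1 were male and all numbered 2 female, while cont. 3 was male and the other livers numbered 3 female, so that sex was not balanced between cont. and the other groups; with sex as a covariate 23 were higher and 1 lower in Atg7-KO, and 4 and 3 in Atg7-KO;p62S351A, against cont. With the replicate block the counts were 30 and 1, 0 and 0, and 5 and 2 in the 3 comparisons, as without it, and 1 gene in place of 2 was higher against the set in Atg7-KO;p62S351A against cont. Fitted log2 fold changes in Atg7-KO against cont. that changed sign were, with the total library size and without the 20 genes, Rplp2 0.43 and 0.31, Rps14 0.26 and 0.15, Rps27l 0.31 and 0.20, Rpl10 0.34 and 0.22, and Rps28 0.17 and 0.0608. With the set as library size they were Rplp1 -0.33, Rpl5 -0.0129, Rpl11 -0.33, Rpsa -0.0365, Rps27a -0.23 and Rpl3 -0.14. After thinning Rplp2 was at 0.0300, and with the length offset Rplp2 was at 0.0111 and Rps27l at 0.0297. Leaving out a library moved Rplp2 from -0.28 to 0.15, Rpl11 from -0.0049 to 0.28, Rps27l from -0.49 to 0.0698 and Rpl10 from -0.38 to 0.0617. Of 1266 alternatives for 51 values of named genes, 1095 kept direction and call, 116 lost the call, 32 gained it and 23 changed sign. The cause of these changes was not tested. Depth limits the low genes most, since 3 counts are 0.269 to 3.73 CPM.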
